A study of Rattus norvegicus with 6 samples.

Results

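Copying the genome before division takes an ordered set of proteins. The origin recognition complex marks start sites, Cdc6 and Cdt1 load the MCM helicase ring there, a kinase and several cofactors switch the ring on, and polymerases, a sliding clamp and its loader then copy both strands from a supply of deoxynucleotides. Most of these genes are transcribed as cells enter S phase, many of them under E2F transcription factors, and heart muscle cells largely shut the set off after birth. The 57 genes described here cover these steps. They were listed by name for their known function, with earlier results of these data known, and all 57 are among the 18237 rows of each count file and passed the filter on low counts.

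The libraries come from cultured rat cells labelled NRVM, which usually stands for ventricular myocytes of newborn rats; the labels trace them to embryonic heart muscle. There were 3 libraries labelled siMt2, for an siRNA against Mt2, and 3 labelled siNT, for a control siRNA. Mt2 encodes a metallothionein, a small metal-binding protein, and the project concerns a translation initiation factor subunit and nitrative damage after ischemia. The medium of both groups was DMEM with serum. The shared protocol text also names dexamethasone, isobutylmethylxanthine and insulin, without saying whether these cells received them, and the labels do not say whether replicates were separate cultures, so p-values measure only the spread between these libraries.

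Counts per library summed to between 2859759 and 6817777. Levels are given as CPM, the usual counts scaled to library size, with library sizes adjusted by TMM, and 3 counts, the most that a count of 0 leaves room for, equalled 0.440 to 1.05 CPM. The first principal component held 66.9% of the variance and separated the groups, and the second (12.4%) set siMt2 replicate 3, the shallowest library, apart from the other siMt2 libraries. Mt2a, the rat Mt2 transcript, stood at 70.7, 87.3 and 142 CPM in the libraries labelled siMt2, against 90.7, 170 and 93.3 CPM in siNT. A knockdown therefore could not be seen in these counts, and groups are called by their labels throughout. The difference did not pass (log2 fold change -0.28, SE 0.42, edgeR adjusted p = 0.631; exact two-sided permutation p = 0.5, where 0.1 is the smallest possible), and its log2 fold change turned to 0.052 when siNT replicate 2 was left out. Most heart muscle markers were nearly missing: 8 of the 10 in the files had under 60 counts over all 6 libraries, among them Myh6 with 9 and Actc1 with 4. The exceptions were Tnnt2, with 1201 counts, and Ttn, with 229.

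Replication genes that changed were mostly higher in the libraries labelled siMt2. Of the 57 genes, 22 (38.6%) were higher and 6 (10.5%) lower at an adjusted p under 0.05 in edgeR's quasi-likelihood test, where 25.8% of all 11726 genes tested were higher and 25.1% lower. Counting both directions, 28 (49.1%) changed, which is near the 50.9% of all genes. The median log2 fold change was 0.18 over the 57 genes and 0.00049 over all genes. All 3 libraries labelled siMt2 lay above all 3 siNT libraries for 23 genes and below them for 5, or 28 of 57 (49.1%) in either direction. Among all genes tested, 28.9% lay above, 28.7% below and 57.6% either way. A log2 fold change above 1 among called genes was seen for 4 (7.02%, against 6.36% of all genes), namely Tk1, Dbf4, Mcm10 and Cdc45, and one below -1 for 0, against 2.6%.

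The higher calls held better than the lower ones. Of the 22 higher calls, 18 stayed with each library left out in turn and 15 under all 15 alternatives tried, whereas only 2 of the 6 lower calls, Prim2 and Tyms, did either. Without siMt2 replicate 3, 21 genes were higher and 7 lower. The count of lower genes was 3 without siMt2 replicate 1 or without siNT replicate 2. Together the 57 genes took 0.217%, 0.219% and 0.222% of the counts in the libraries labelled siMt2, against 0.201%, 0.195% and 0.196% in siNT, groups that did not overlap. In bulk RNA, more cells in S phase and more of these transcripts per cell cannot be told apart.

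**Figure D1:**
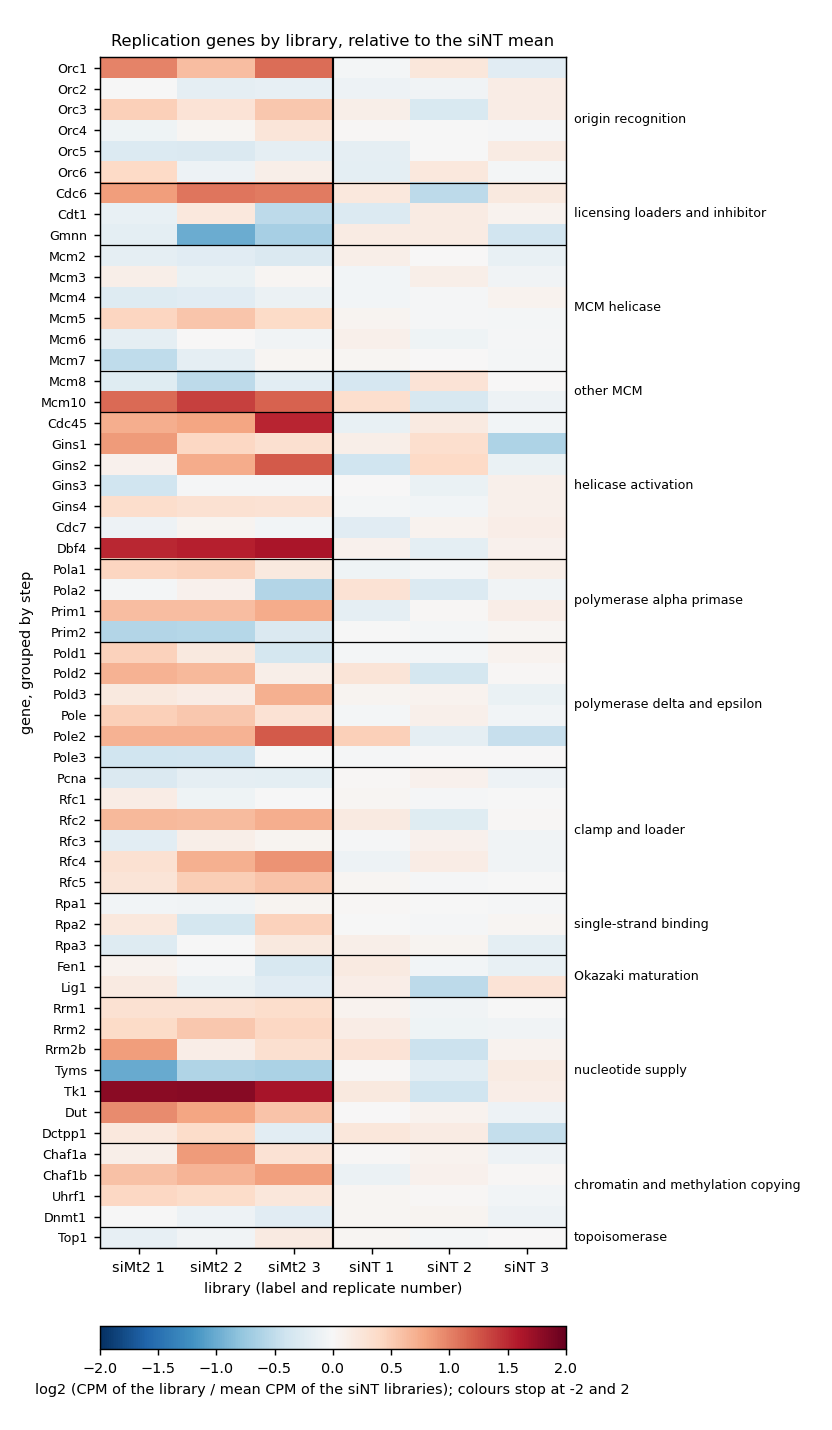
Each row is 1 of the 57 replication genes, grouped by step, and each column 1 library, with the 3 siMt2 libraries on the left and the 3 siNT libraries on the right; colour gives log2 of the library's CPM over the mean siNT CPM. Tk1, Dbf4 and Mcm10 are red in all 3 siMt2 libraries, Tyms and Prim2 are blue in all 3, and the rows of single-strand binding and Okazaki maturation genes show no split between the groups.

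Many promoters of these genes share a sequence that did not enter their choice. A promoter of 300 bases (250 before the annotated start and 50 after it, RefSeq, build GRCr8) was at hand for 49 of the 57 genes. It was searched on both strands for 4 spellings of the E2F site, TTTCCCGC, TTTGGCGC, TTTGCCGC and TTTCGCGC, whose matches on the 2 strands can overlap. At least 1 of them was present for 22 of the 49 genes (44.9%), against 366 of 8435 tested genes with a promoter (4.34%) and 153 of the 2921 tested genes whose promoter GC content lay between 55.3% and 63.3%, the middle range of the 49 (5.24%). CCAAT, the NF-Y box, was present on either strand for 27 of the 49 (55.1%), against 39.8% of tested genes and 44.1% of those in the same GC range.

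The following windows belong to the 7 genes that changed and have an E2F spelling wholly before the start. The words rose and fell give the calls of the main test. Those of Orc3, Orc5, Mcm2 and Pola1 did not hold under every alternative tried. Capitals mark the match, and overlapping matches run together.
Mcm5 distal, rose: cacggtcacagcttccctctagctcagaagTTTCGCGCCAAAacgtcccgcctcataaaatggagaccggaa
Mcm5 proximal, rose: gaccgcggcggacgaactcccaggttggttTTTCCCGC
Orc3, rose: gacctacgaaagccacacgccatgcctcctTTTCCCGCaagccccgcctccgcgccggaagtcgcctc
Pola1, rose: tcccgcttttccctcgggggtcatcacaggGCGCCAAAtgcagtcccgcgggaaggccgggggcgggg
Uhrf1 distal, rose: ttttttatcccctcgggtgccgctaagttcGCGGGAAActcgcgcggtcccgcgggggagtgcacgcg
Uhrf1 proximal, rose: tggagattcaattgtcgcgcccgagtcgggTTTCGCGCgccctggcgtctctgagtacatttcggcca
Mcm2, fell: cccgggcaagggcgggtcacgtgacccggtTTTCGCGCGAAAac
Orc5, fell: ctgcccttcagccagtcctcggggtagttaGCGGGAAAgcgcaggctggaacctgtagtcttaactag
Tyms, fell: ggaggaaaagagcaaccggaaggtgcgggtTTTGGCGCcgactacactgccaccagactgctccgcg

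In GRCr8 the Mcm5 windows lie at chr19:13488570-13488641 and chr19:13488775-13488812 on the plus strand, with matches that begin at positions -213 and -8 relative to the annotated start. The Uhrf1 windows are chr9:1222963-1223030 and chr9:1223057-1223124, plus strand, with matches from -193 and -99, and the Orc5 window is chr4:13440127-13440194, plus strand, from -176. Those of Orc3 (chr5:53977852-53977919, from -95), Pola1 (chrX:62342490-62342557, from -172), Mcm2 (chr4:122918095-122918138, from -14) and Tyms (chr9:120776084-120776150, from -37) are on the minus strand. Among the 22 genes with a match anywhere in the promoter, 6 rose (27.3%) and 3 fell (13.6%), with a median log2 fold change of -0.031. Of all 366 tested genes with a match, 21.3% rose and 28.7% fell, with a median of -0.031. Among the 27 with a promoter and no match, 13 rose (48.1%) and 2 fell (7.41%), with a median of 0.31. Of all 8069 tested genes with a promoter and no match, 26.2% rose and 26.9% fell, with a median of -0.01. Tk1, Dbf4, Mcm10 and Cdc45 were among these 27, and no difference between the sets was tested. Neither the 22 nor the 27 include the 8 genes without a promoter at hand. Of these, Orc1, Cdc6 and Rrm2 rose, Mcm4 fell, and Orc4, Gins4, Rpa3 and Rrm2b did not pass. No match means only that the 4 exact spellings were absent from the promoter. Other spellings and sites further away were not searched.

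Origin recognition and licensing changed in a few members. Orc1, the largest subunit of the origin recognition complex, stood at 17.8, 13.7 and 19.4 CPM in the libraries labelled siMt2, against 8.67, 10.5 and 7.66 CPM in siNT. Every siMt2 value lay above every siNT value, and the level was 1.91 times as high (log2 fold change 0.93, SE 0.19, edgeR adjusted p = 0.000469). Orc3, another subunit, had 33.4, 28.9 and 34.9 CPM with siMt2, against 26.0, 19.4 and 26.4 CPM with siNT, again without overlap (0.42, SE 0.13, adjusted p = 0.0137). Orc5, which binds ATP within the complex, fell to 47.6, 46.6 and 50.7 CPM with siMt2, against 50.6, 56.9 and 64.2 CPM with siNT (-0.25, SE 0.10, adjusted p = 0.0434). Its groups overlapped at the edge. Orc2, the subunit paired with Orc3 in the complex, had 58.1, 51.5 and 52.5 CPM with siMt2 and 54.5, 56.2 and 65.3 CPM with siNT and did not pass, nor did Orc4 (log2 fold change 0.05) or Orc6 (0.18). The Orc3 call was lost without siMt2 replicate 1 (edgeR adjusted p = 0.0683) or siNT replicate 2 (0.0829), in DESeq2 (0.0756) and with libraries thinned to equal depth (log2 fold change 0.25, adjusted p = 0.278). The Orc5 call was lost without siMt2 replicate 1 (0.124), siMt2 replicate 2 (0.119), siNT replicate 2 (0.0781) or siNT replicate 3 (0.256, with a log2 fold change of -0.16), and with the replicate number as a block (0.055). It was also lost with upper quartile scaling (0.0856), with library totals (0.0516), in DESeq2 (0.143) and with thinning, where the log2 fold change was -0.07 (0.692).

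Cdc6, the ATPase that joins the origin complex to bring in the helicase, rose to 12.8, 15.1 and 14.8 CPM in the libraries labelled siMt2, against 8.31, 5.02 and 8.28 CPM in siNT (log2 fold change 0.94, SE 0.21, edgeR adjusted p = 0.00104). The groups did not overlap. Its partner Cdt1 had 14.6, 18.7 and 11.3 CPM with siMt2 and 13.4, 18.2 and 16.9 CPM with siNT (-0.09, SE 0.19, 95% interval -0.48 to 0.30). Gmnn encodes geminin, the protein that holds Cdt1 inactive after S phase has begun. It stood at 12.7, 7.33 and 9.16 CPM with siMt2, against 16.3, 16.2 and 11.2 CPM with siNT, and missed the threshold (-0.52, SE 0.22, adjusted p = 0.0538). Geminin passed without siMt2 replicate 1 (adjusted p = 0.0142), without siNT replicate 3 (0.0243), with the replicate block (0.0284) and with no filter on low counts (0.0289). Without siMt2 replicate 2 its log2 fold change shrank to -0.34 (adjusted p = 0.24).

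The 6 subunits of the MCM ring, Mcm2 to Mcm7, which assemble in equal numbers, did not change in 1 direction. Mcm5 stood at 48.0, 52.7 and 46.5 CPM in the libraries labelled siMt2, against 37.4, 35.1 and 34.9 CPM in siNT (log2 fold change 0.46, SE 0.10, edgeR adjusted p = 0.000826). Mcm4 fell to 106, 108 and 116 CPM with siMt2, against 122, 124 and 133 CPM with siNT (-0.21, SE 0.07, adjusted p = 0.0108). Mcm2 fell to 74.3, 72.1 and 69.0 CPM with siMt2, against 91.2, 84.6 and 76.2 CPM with siNT (-0.22, SE 0.08, adjusted p = 0.0354). None of these 3 genes had overlapping groups, and both falls were small, to 0.864 and 0.861 times the siNT level. Mcm7 had 33.1, 41.6 and 48.2 CPM with siMt2 and 48.0, 47.1 and 45.8 CPM with siNT and did not pass (adjusted p = 0.107), though without siMt2 replicate 3, its highest siMt2 value, it did (log2 fold change -0.35, adjusted p = 0.00707). Without siMt2 replicate 1, its lowest, the log2 fold change was -0.07 (adjusted p = 0.645). Mcm3 (0.03, SE 0.11) and Mcm6 (-0.09, SE 0.09) did not pass either. The Mcm2 call was lost with any library but siNT replicate 3 left out (adjusted p from 0.0553 to 0.185), in DESeq2 (0.117), in limma-voom (0.0541), with upper quartile scaling (0.0806) and with libraries thinned to equal depth (0.175). The Mcm4 call was lost without siMt2 replicate 1 (0.0802) or siNT replicate 3 (0.0822), in DESeq2 (0.0563) and with thinning (0.19).

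Mcm10, which is not part of the ring but helps to start unwinding and tethers the primase, was among the largest rises. It stood at 16.2, 19.1 and 16.9 CPM in the libraries labelled siMt2, against 9.39, 5.97 and 6.90 CPM in siNT, 2.32 times as high (log2 fold change 1.21, SE 0.20, edgeR adjusted p = 3.69e-05). Mcm8, a helicase of recombination repair, had 12.4, 10.2 and 12.7 CPM with siMt2 and 11.6, 17.7 and 14.7 CPM with siNT and did not pass (-0.31, SE 0.19). Its groups overlapped, whereas those of Mcm10 lay well apart.

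Helicase activation contained the second largest rise of the set. Dbf4, the regulatory subunit without which the kinase Cdc7 is inactive, stood at 7.74, 8.04 and 8.45 CPM in the libraries labelled siMt2, against 2.89, 2.39 and 2.91 CPM in siNT. The groups did not overlap, and the level was 2.89 times as high (log2 fold change 1.53, SE 0.28, edgeR adjusted p = 0.000114). These values came from low counts, 53, 34 and 24 with siMt2 and 16, 10 and 19 with siNT. Cdc7 itself averaged 14.7 ± 0.825 CPM with siMt2 and 15 ± 1.91 CPM with siNT (SD, n = 3 each), and its log2 fold change was -0.03, with a 95% interval of -0.39 to 0.32. Cdc45, the cofactor that binds the ring to form the active helicase, had 12.8, 13.5 and 22.5 CPM with siMt2, against 7.04, 8.84 and 7.51 CPM with siNT (1.02, SE 0.23, adjusted p = 0.000834). Its highest value came from siMt2 replicate 3, the library that stood apart, and the other siMt2 values were still above all siNT values.

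The GINS complex is the other cofactor of the active helicase, and no subunit of it passed. Gins2 had 4.82, 7.57 and 10.6 CPM in the libraries labelled siMt2 and 3.43, 5.97 and 4.14 CPM in siNT (log2 fold change 0.70, SE 0.32, edgeR adjusted p = 0.0692). Gins1 had 5.11, 3.78 and 3.52 CPM with siMt2 and 3.07, 3.58 and 1.84 CPM with siNT (0.63, SE 0.35, adjusted p = 0.143). These were among the least counted genes of the set, with as few as 10 counts in a library, and their intervals were the widest. Gins2 passed without siMt2 replicate 1 (adjusted p = 0.0202), without siNT replicate 2 (0.0474) and with the replicate block (0.0486). Without siMt2 replicate 3, its highest library, its log2 fold change was 0.45 (adjusted p = 0.264), and it passed in no other setting tried. Gins4 (0.31) and Gins3 (-0.18) did not pass, although all 3 siMt2 values of Gins4 lay above the siNT values.

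The primase, which lays down the RNA primers, changed in opposite directions in its 2 subunits. Prim1, the catalytic subunit, stood at 83.1, 83.0 and 90.5 CPM in the libraries labelled siMt2, against 47.5, 55.0 and 59.5 CPM in siNT (log2 fold change 0.65, SE 0.09, edgeR adjusted p = 5.24e-06). Prim2, the regulatory subunit that binds it, fell to 17.8, 18.0 and 21.8 CPM with siMt2, against 26.6, 26.1 and 27.3 CPM with siNT (-0.50, SE 0.13, adjusted p = 0.00412). Neither gene had overlapping groups, and both calls held under every alternative tried. Pola1, the catalytic subunit of polymerase alpha, which extends the primers, had 40.9, 41.9 and 34.9 CPM with siMt2, against 28.7, 29.6 and 33.0 CPM with siNT (0.37, SE 0.11, adjusted p = 0.00829), a call that DESeq2 did not make (adjusted p = 0.075). Its partner Pola2 had 21.6, 23.6 and 14.8 CPM with siMt2 and 27.1, 18.4 and 21.3 CPM with siNT (-0.13, SE 0.17) and did not pass.

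**Figure D2:**
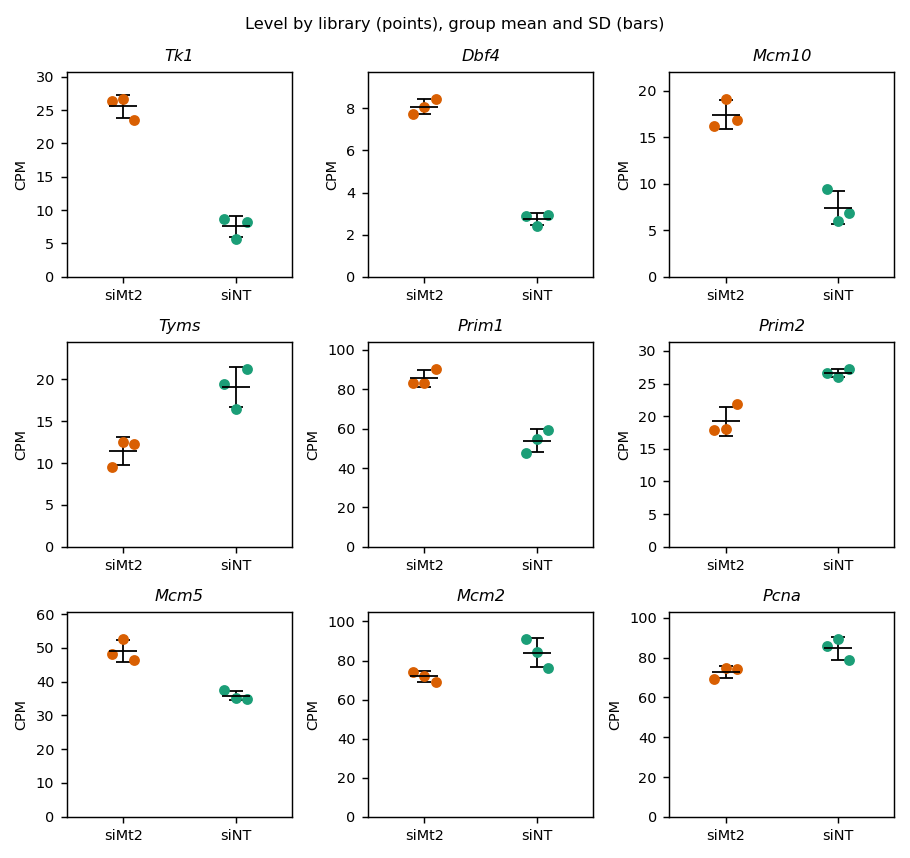
CPM of 9 replication genes in each library (points), with siMt2 left of siNT and the group mean ± SD as black bars; each vertical axis starts at 0. Tk1, Dbf4, Mcm10, Prim1 and Mcm5 are higher in all 3 siMt2 libraries and Tyms, Prim2, Mcm2 and Pcna lower, with the largest gap for Tk1 at 25.6 ± 1.73 and 7.56 ± 1.59 CPM.

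Among the polymerases that copy the bulk of the genome, 3 of 6 genes were called higher, where 25.8% of all genes tested were. The calls of Pole2 and Pold2 were unstable. Pole, the catalytic subunit of the leading strand polymerase epsilon, had 40.9, 42.3 and 35.9 CPM in the libraries labelled siMt2, against 28.4, 31.3 and 28.2 CPM in siNT (log2 fold change 0.46, SE 0.11, edgeR adjusted p = 0.00163; 0.102 with libraries thinned to equal depth). Pole2, its second subunit, had 6.13, 6.15 and 8.80 CPM with siMt2, against 5.24, 3.35 and 2.76 CPM with siNT (0.85, SE 0.31, adjusted p = 0.0248). Pold2, a subunit of the lagging strand polymerase delta, had 49.5, 47.8 and 33.1 CPM with siMt2, against 36.7, 23.9 and 31.0 CPM with siNT (0.53, SE 0.16, adjusted p = 0.0145). The groups of Pole and Pole2 did not overlap, and those of Pold2 did. Pole3, a histone-fold subunit of polymerase epsilon, had 26.6, 27.0 and 34.9 CPM with siMt2 and 34.7, 35.4 and 35.6 CPM with siNT and just missed the threshold (-0.29, SE 0.12, adjusted p = 0.0501). The delta subunits Pold3 (0.34, adjusted p = 0.0537) and Pold1, the catalytic one (0.20, adjusted p = 0.409), did not pass. The Pole2 call was lost without siMt2 replicate 3 (adjusted p = 0.0762), siNT replicate 2 (0.077) or siNT replicate 3 (0.131), in DESeq2 (0.106) and with thinned libraries (0.0731). That of Pold2 was lost without siMt2 replicate 1 (0.0854), siMt2 replicate 2 (0.0648), siNT replicate 2 (0.0573) or siNT replicate 3 (0.0588). Pole3 passed without siMt2 replicate 3 (0.00647), and Pold3 without siMt2 replicate 1 (0.0457) or siMt2 replicate 2 (0.0309). By contrast, the log2 fold change of Pole3 was -0.21 without siMt2 replicate 1 (adjusted p = 0.25) and that of Pold3 0.18 without siMt2 replicate 3 (0.261). Both genes lay on either side of the threshold under other scalings, filters and tools, Pole3 between 0.0319 in limma-voom and 0.203 in DESeq2, and Pold3 between 0.0321 with upper quartile scaling and 0.167 in DESeq2.

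Of 6 clamp and loader genes, 3 loader subunits were called higher and the clamp gene Pcna lower. Among all genes tested, 25.8% were higher and 25.1% lower. The calls of Rfc5 and Pcna did not hold under every alternative tried. Rfc2 had 24.8, 24.6 and 26.1 CPM in the libraries labelled siMt2, against 17.9, 13.4 and 16.1 CPM in siNT (log2 fold change 0.65, SE 0.14, edgeR adjusted p = 0.000812). Rfc4 had 29.8, 39.5 and 44.7 CPM with siMt2, against 22.6, 26.8 and 23.0 CPM with siNT (0.62, SE 0.14, adjusted p = 0.00101). Rfc5 had 24.8, 29.1 and 30.6 CPM with siMt2, against 21.3, 20.3 and 20.5 CPM with siNT (0.42, SE 0.13, adjusted p = 0.0116, but 0.0794 in DESeq2). These 3 small subunits, which open the clamp together with the large subunit, had groups that did not overlap. The large subunit gene Rfc1 (0.03, SE 0.08) and Rfc3 (-0.02, SE 0.15) did not pass. Pcna, the ring-shaped clamp that holds polymerases on DNA and a common marker of proliferating cells, fell to 69.3, 75 and 74.3 CPM with siMt2, against 85.8, 89.6 and 78.6 CPM with siNT (-0.22, SE 0.08, adjusted p = 0.0275). The Pcna call was lost without siMt2 replicate 1 (0.145), siNT replicate 1 (0.0771) or siNT replicate 2 (0.099), in DESeq2 (0.107) and with upper quartile scaling (0.0642).

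Genes for single-strand binding, for joining Okazaki fragments and for relaxing the helix did not pass. Rpa1, the large subunit of the protein that coats single-stranded DNA, had 93.4, 93.2 and 101 CPM in the libraries labelled siMt2 and 99.5, 97.0 and 96.1 CPM in siNT, a log2 fold change of -0.03 with a 95% interval of -0.17 to 0.11. Rpa2 had 23.6, 16.1 and 28.2 CPM with siMt2 and 20.2, 20.1 and 21.0 CPM with siNT (0.13, interval -0.22 to 0.47). Rpa3 had 9.78, 11.6 and 13.4 CPM with siMt2 and 12.6, 12.2 and 10.3 CPM with siNT (-0.04, interval -0.45 to 0.36). The groups of all 3 overlapped, and the interval of Rpa1 was the narrowest of them. Fen1, the nuclease that trims flaps, had 29.3, 27.4 and 22.2 CPM with siMt2 and 31.6, 26.8 and 25.1 CPM with siNT (-0.05, interval -0.33 to 0.23). Lig1, the ligase that seals the nicks, had 12.1, 9.70 and 9.16 CPM with siMt2 and 11.7, 7.41 and 12.9 CPM with siNT (-0.04, interval -0.50 to 0.41). Top1, the topoisomerase that relieves twist ahead of the fork and is also used in transcription, had 77.2, 83.0 and 98.2 CPM with siMt2 and 88.9, 84.1 and 87.5 CPM with siNT (-0.04, interval -0.21 to 0.14). The groups of these genes overlapped too, and the intervals of Rpa2, Rpa3, Fen1 and Lig1 hold changes as large as some called elsewhere in the set, such as that of Mcm4.

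**Figure D3:**
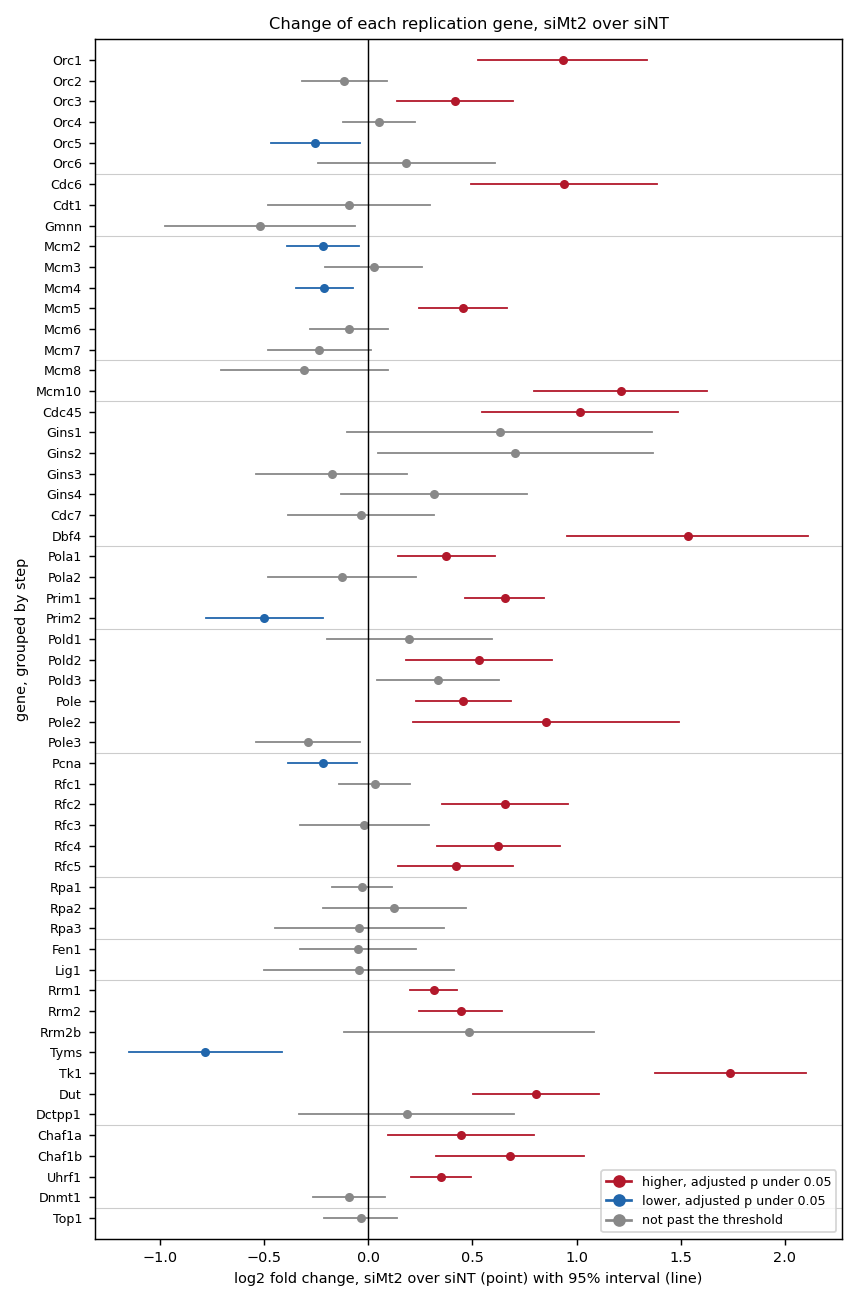
Log2 fold change of each of the 57 genes, siMt2 over siNT (points), with its 95% interval (lines), grouped by step from origin recognition at the top to Top1 at the bottom; red and blue mark genes past an adjusted p of 0.05. The called genes run from -0.78 for Tyms to 1.74 for Tk1, and Mcm2 to Mcm7, Prim1 and Prim2, and Pcna and Rfc2 show both colours within a step.

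Nucleotide supply held the largest rise and the deepest fall of the 57 genes. Tk1, the cytosolic thymidine kinase that salvages thymidine and is made mainly in S phase, stood at 26.4, 26.7 and 23.6 CPM in the libraries labelled siMt2, against 8.67, 5.74 and 8.28 CPM in siNT. It was 3.34 times as high (log2 fold change 1.74, SE 0.17, edgeR adjusted p = 6.41e-08). Tyms, thymidylate synthase, which makes the same thymidine nucleotide from dUMP, fell to 9.49, 12.5 and 12.3 CPM with siMt2, against 19.5, 16.5 and 21.3 CPM with siNT (-0.78, SE 0.18, adjusted p = 0.000948). Neither gene had overlapping groups. Dut, the enzyme that breaks down dUTP and so supplies dUMP, had 29.6, 26.5 and 22.9 CPM with siMt2, against 15.5, 16.2 and 14.4 CPM with siNT (0.81, SE 0.14, adjusted p = 9.82e-05).

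Ribonucleotide reductase, which turns ribonucleotides into deoxyribonucleotides, rose modestly in both of its S phase subunits. Rrm1, the large subunit, had 217, 217 and 223 CPM in the libraries labelled siMt2, against 185, 168 and 174 CPM in siNT (log2 fold change 0.31, SE 0.05, edgeR adjusted p = 6.29e-05). Rrm2, the small subunit, had 61.3, 68.6 and 62.3 CPM with siMt2, against 51.8, 44.2 and 44.9 CPM with siNT (0.44, SE 0.10, adjusted p = 0.000676). All siMt2 values were above all siNT values for both genes, and Rrm1 had the smallest fold among the genes that rose, 1.24. Rrm2b, the p53-inducible small subunit used outside S phase, averaged 6.21 ± 1.61 CPM with siMt2 and 4.50 ± 1.06 CPM with siNT (SD, n = 3 each) and did not pass (0.48, SE 0.29, interval -0.12 to 1.09). Dctpp1, which breaks down surplus dCTP, did not pass either (0.18, SE 0.25).

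Of 4 genes that restore chromatin and its methylation behind the fork, 3 were called higher, where 25.8% of all genes tested were. The Chaf1a call was unstable. Uhrf1, which recognises half-methylated DNA and recruits Dnmt1, had 120, 117 and 106 CPM in the libraries labelled siMt2, against 92.8, 91.5 and 87.2 CPM in siNT (log2 fold change 0.35, SE 0.07, edgeR adjusted p = 0.000286). Chaf1b, a subunit of the histone chaperone CAF-1, had 16.2, 17.3 and 19.0 CPM with siMt2, against 9.94, 11.5 and 11 CPM with siNT (0.68, SE 0.17, adjusted p = 0.00236). Its partner Chaf1a had 22.5, 37.6 and 25.4 CPM with siMt2, against 21.1, 21.8 and 19.5 CPM with siNT (0.45, SE 0.17, adjusted p = 0.0328). The groups of these 3 genes did not overlap, but the Chaf1a value of siMt2 replicate 2 stood well above the others. Without that library its log2 fold change was 0.19 (adjusted p = 0.32), and the call was also lost without siNT replicate 1 (0.0856), siNT replicate 2 (0.076) or siNT replicate 3 (0.129), in DESeq2 (0.105), in limma-voom (0.0702) and with thinned libraries (0.177). Dnmt1, the methyltransferase that copies methylation marks, had 74.8, 70.5 and 64.8 CPM with siMt2 and 77.5, 78.4 and 70.7 CPM with siNT (-0.09, SE 0.08) and did not pass.

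Ratios of counts within a library do not depend on how libraries are scaled, and they were taken for 8 pairs of partners chosen after their values were seen, so they are given without a test. Only their change between groups is read, since gene lengths were not used. The Tk1 to Tyms ratio was 2.78, 2.13 and 1.91 in the libraries labelled siMt2, against 0.444, 0.348 and 0.388 in siNT, a 5.74-fold difference of the group means on the log scale. The Prim1 to Prim2 ratio was 4.66, 4.62 and 4.15 with siMt2, against 1.79, 2.11 and 2.18 with siNT, and that of Dbf4 to Cdc7 was 0.552, 0.515 and 0.585 with siMt2, against 0.225, 0.152 and 0.178 with siNT. In these pairs, each drawn from 1 enzyme or 1 pathway, every siMt2 ratio lay above every siNT ratio. For Dbf4 to Cdc7, only Dbf4 passed the threshold. The Mcm5 to Mcm2 ratio was 0.646, 0.731 and 0.673 with siMt2, against 0.410, 0.415 and 0.459 with siNT, and Rfc2 to Rfc1 was 0.309, 0.359 and 0.361 with siMt2, against 0.239, 0.188 and 0.224 with siNT. Groups overlapped for Cdt1 to Gmnn, for Rrm2 to Rrm1 and for Pole2 to Pole.

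**Figure D4:**
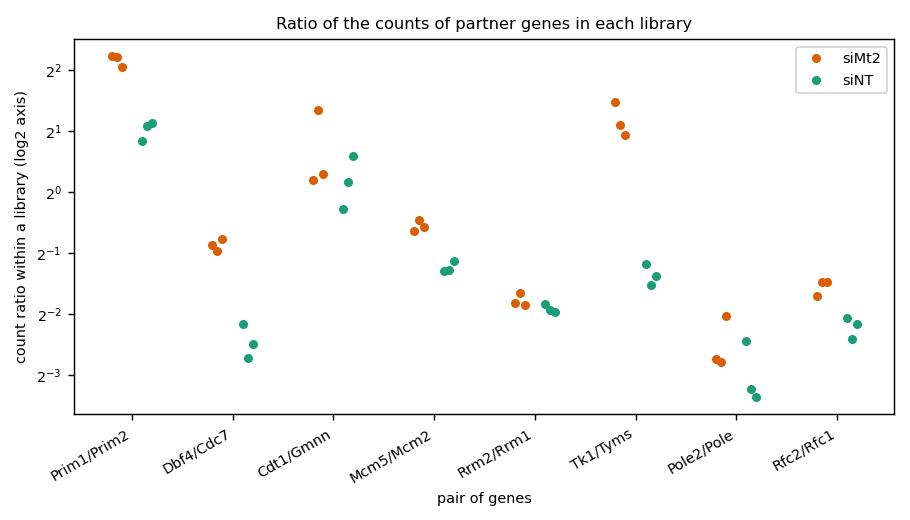
Ratio of the counts of 2 partner genes in each library on a log2 axis, with siMt2 (orange) left of siNT (green) for each of 8 pairs. The points of Tk1/Tyms, Prim1/Prim2, Dbf4/Cdc7, Mcm5/Mcm2 and Rfc2/Rfc1 are higher in all 3 siMt2 libraries, and those of Cdt1/Gmnn, Rrm2/Rrm1 and Pole2/Pole overlap.

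Other genes of the pathway, from a list of 81 of which 77 were tested, also went both ways. Of these, 29 were higher and 17 lower, with a median log2 fold change of 0.18. Among all genes tested, 25.8% were higher and 25.1% lower. The counts by group that follow stand beside these same shares, and no difference from them was tested. Of 17 fork protection and checkpoint adaptors, 6 rose and 1 fell. Ticrr, which brings Cdc45 to the helicase, had 19.9, 21.1 and 20.8 CPM in the libraries labelled siMt2, against 9.39, 5.97 and 9.35 CPM in siNT (log2 fold change 1.28, SE 0.19, edgeR adjusted p = 8.20e-06). The checkpoint kinase gene Atr had 46.6, 48.0 and 53.2 CPM with siMt2, against 25.1, 29.9 and 29.7 CPM with siNT (0.79, SE 0.11), and Recql4 (0.93, SE 0.21), a helicase, and Mcmbp (0.30, SE 0.07), an MCM-binding protein, rose as well.

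Of 13 further polymerase, clamp and maturation genes, 5 rose and 3 fell. Dscc1, a subunit of an alternative clamp loader, had 10.5, 12.5 and 14.4 CPM in the libraries labelled siMt2, against 1.45, 4.78 and 1.84 CPM in siNT (log2 fold change 2.27, SE 0.33, edgeR adjusted p = 9.84e-06), from siNT counts of 8, 20 and 12. Chtf8, a subunit of the same loader, had 102, 106 and 106 CPM with siMt2, against 65.6, 66.2 and 62.7 CPM with siNT (0.69, SE 0.07, adjusted p = 1.52e-07). Polh, a polymerase that copies past damaged bases, fell to 22.6, 18.7 and 26.1 CPM with siMt2, against 46.8, 51.9 and 58.1 CPM with siNT (-1.24, SE 0.13, adjusted p = 7.71e-08). Rnaseh2a, the catalytic subunit of an enzyme that removes ribonucleotides from DNA, fell to 34.9, 38.1 and 23.6 CPM with siMt2, against 60.1, 76.7 and 61.5 CPM with siNT (-0.99, SE 0.14, adjusted p = 2.72e-05). None of these 4 genes had overlapping groups.

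Of 28 other nucleotide metabolism genes, 11 rose and 8 fell. The GMP synthase gene Gmps had 144, 151 and 151 CPM in the libraries labelled siMt2, against 102, 101 and 102 CPM in siNT (log2 fold change 0.55, SE 0.06, edgeR adjusted p = 2.28e-07), and Shmt1, which supplies one-carbon units, rose too (0.92, SE 0.14). The guanylate kinase gene Guk1 (-0.62, SE 0.09) and the purine synthesis gene Adsl (-0.59, SE 0.09) fell. Of 11 genes of chromatin assembly, 4 rose and 3 fell: the histone chaperone genes Asf1b (1.54, SE 0.18) and Nasp (0.46, SE 0.10) rose, while Rbbp4 (-0.39, SE 0.08), a subunit shared by CAF-1 and other complexes, and Ssrp1 (-0.16, SE 0.05), a FACT subunit, fell. Of 8 genes of licensing turnover, 3 rose and 2 fell. Dtl, the adaptor that sends Cdt1 for destruction, had 38.2, 32.9 and 40.5 CPM with siMt2, against 18.8, 19.6 and 19.0 CPM with siNT (0.96, SE 0.12, adjusted p = 2.15e-06). The ubiquitin ligase scaffold gene Cul4a rose (0.62, SE 0.07), while its relative Cul4b (-0.35, SE 0.07) and Ddb1, which links Dtl to it (-0.25, SE 0.04), fell.

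**Figure D5:**
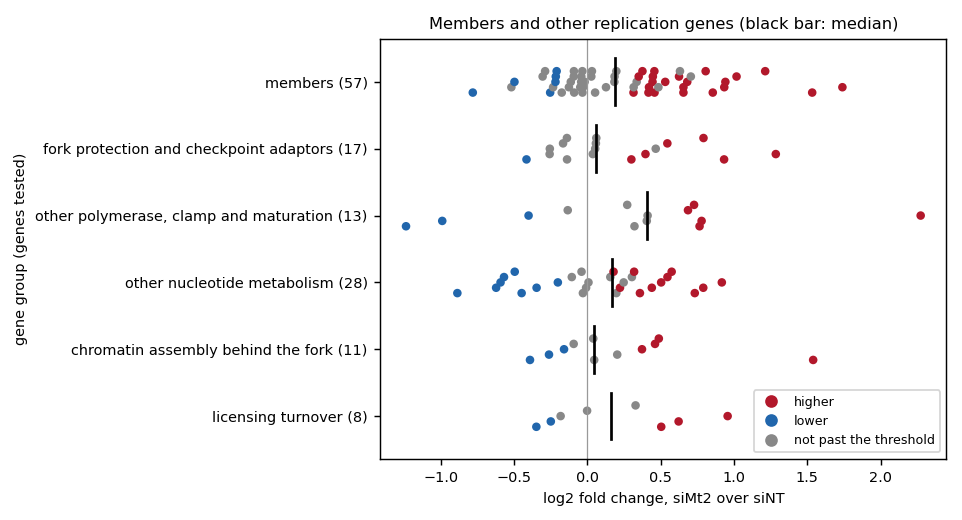
Log2 fold change of the 57 members (top row) and of 77 other replication genes in 5 groups, siMt2 over siNT, 1 point per gene, with the group median as a black bar. Red and blue points occur in every row, from -1.24 for Polh to 2.27 for Dscc1.

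Some markers of other cell types moved with the groups. Of 9 fibroblast markers tested 6 rose and 1 fell, where 25.8% of all genes tested were higher and 25.1% lower. Among the rises, Dcn and Lum had only 50 and 51 counts over all 6 libraries. The 10 in the files summed to between 19490 and 23120 CPM in the libraries labelled siMt2, against 18900 to 18980 CPM in siNT. Fn1, the marker that fell, held 313625 of these 611229 counts. Of 6 smooth muscle markers 4 rose and 1 fell, beside the same shares. They summed to between 4166 and 4274 CPM with siMt2, against 2408 to 2437 CPM with siNT. Acta2, which rose, held 61061 of these 98003 counts. The 10 heart muscle markers in the files summed to between 57.2 and 72.2 CPM with siMt2, against 36.3 to 40.3 CPM with siNT. Tnnt2 made up most of these counts (1201 of 1533) and was higher with siMt2 (log2 fold change 1.01, SE 0.11, edgeR adjusted p = 1.81e-07). Actc1 and Nppb were nearly absent from both groups. Their siMt2 counts were 0, 4 and 0 for Actc1 and 2, 0 and 0 for Nppb, and their siNT counts all 0. The fibroblast marker Pdgfra was nearly absent too, with counts of 0 in all siMt2 libraries and 2, 0 and 0 in siNT. The 3 endothelial markers in the files summed to between 33.45 and 40.9 CPM with siMt2, against 76.3 to 85.1 CPM with siNT. Eng made up most of these counts (1648 of 1820), and Vwf did not pass (edgeR adjusted p = 0.398). The 5 leukocyte markers summed to between 14.7 and 18.2 CPM with siMt2, against 23.2 to 27.9 CPM with siNT. Most of their counts came from Cd14 (582 of 648), the only leukocyte marker tested. Ptprc was nearly absent from both groups, with counts of 0, 0 and 2 in siMt2 and 0 in all siNT libraries. The part of these shifts in the replication genes was not tested. In the GRCr8 annotation 8 of the 57 genes overlap a protein-coding neighbour, among them Orc3, Pole2, Rrm2 and Uhrf1. The sources used here do not say whether counting used strand, so reads of such neighbours cannot be told apart.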

How the data were processed

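RNA-seq of 6 libraries was analysed from counts per gene. The counts were deposited by the authors without normalization, in 1 file for each library; per the labels' protocols, libraries were made from column-purified total RNA with a SMARTer mRNA-seq kit. Per the submitters' processing notes, build rn6 was used, with featureCounts, HISAT2 2.2.1, Trimmomatic 0.40, DESeq2 and limma; order, settings and strand are not given in the sources used here. Of 18237 rows, 25 have names turned into dates (0.260% of counts); they stayed in library sizes and tests. Each file has 1 count column, and 0 columns were left without a sample.

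Groups and replicate numbers come from the sample titles. The test was run in edgeR 4.0.16 (R 4.3.3): filterByExpr (minimum count 10), TMM, robust quasi-likelihood test, two-sided, Benjamini-Hochberg over all 11726 genes tested, threshold 0.05. Fold changes are siMt2 over siNT on the log2 scale; intervals are 95% and SE is the log2 fold change over the root of F. Depth, 2859759 to 6817777 counts, sets the precision; 3 counts equal 0.440 to 1.05 CPM, for counting error only. The method was run on simulated counts in which far fewer genes changed than were called here. That run therefore does not test the scaling under so many changes. Chi-square values of same-group library pairs were 1.58 to 2.23 times what counting noise gives, so each pair differed by more than counting noise. Whether libraries shared a culture or an RNA sample was not tested. Alternatives were DESeq2 size factors, upper quartile scaling, library totals, no filter, a stricter filter, a replicate block, each library left out, DESeq2 1.42.0 and limma-voom (limma 3.58.1); thinning to equal depth was added after seeing the data. Every member is named; values by library are given for up to 4 per step by smallest adjusted p and for each called member against the majority direction, such as Tyms. Up to 4 other genes per group are named by smallest adjusted p, some with values by library. Promoters are RefSeq's, GRCr8, used for sequence only. The members and lists were chosen with earlier results of these data known.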

Additional observations from a re-analysis of the deposited data

How the results depend on the processing

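The count of replication genes that rose lay between 17 (DESeq2) and 23 over all alternatives and between 19 and 22 with 1 library left out. The count that fell was less stable: 3 under upper quartile scaling, 2 with DESeq2, 3 with libraries thinned to equal depth (chosen after seeing the data), and 3 to 7 with 1 library left out, against 6. The cause was not tested, except that thinning and leaving out remove counts. No called gene reversed under any alternative; of their recomputed values, 370 kept the call and 50 lost it.

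With the replicate number as a block, 23 genes rose and 6 fell. Deviations of same-numbered libraries correlated at -0.00182, -0.0600 and 0.0234 across genes, and those of differently numbered ones at -0.0628 to 0.0755. No siMt2 library correlated best with the siNT library of its own number. No pairing by number was seen, but deviations from means of 3 libraries cannot exclude paired cultures.

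Signs changed only for genes that missed the threshold. Under upper quartile scaling, which moved the median of all genes to 0.039, log2 fold changes became 0.0040 for Cdc7, 0.019 for Rfc3, 0.0082 for Rpa1 and 0.0031 for Top1; with thinning they were -0.062 for Rfc1 and 0.032 for Top1. With 1 library left out, log2 fold changes ranged from -0.56 to 0.052 for Mt2a, -0.024 to 0.14 for Orc4, -0.27 to 0.033 for Cdt1, -0.043 to 0.098 for Mcm3, -0.14 to 0.043 for Cdc7, -0.24 to 0.030 for Pola2 and -0.019 to 0.35 for Pold1. They ranged from -0.047 to 0.086 for Rfc1, -0.092 to 0.099 for Rfc3, -0.0052 to 0.31 for Rpa2, -0.14 to 0.091 for Rpa3, -0.14 to 0.050 for Fen1, -0.23 to 0.11 for Lig1, -0.030 to 0.32 for Dctpp1 and -0.12 to 0.052 for Top1. Depth limits the least counted members: SE ran from 0.054 for Rrm1 to 0.35 for Gins1.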

Other observations

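Among tested genes that are not in the replication set, 344 with a promoter carried an E2F spelling, of which 72 (20.9%) were higher with siMt2 than with siNT and 102 (29.7%) were lower. Of 8042 such genes without it, 26.1% were higher and 27.0% lower. No test was made of this difference.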
